A study of Rattus norvegicus with 8 samples.

Results

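Decorin (Dcn) and lumican (Lum) high cells of the rat fracture callus were selected on their measured UMIs of these 2 genes, as the barcodes with at least 5000 unique molecular identifiers (UMIs, one per captured transcript) in all, at least 5 UMIs of Dcn and at least 5 UMIs of Lum. There were 5353 such cells among 65208 cells of at least 5000 UMIs, or 8.21%, and among 69624 barcodes in all. They were set against the 26583 cells of at least 5000 UMIs with 0 UMIs of both genes, called double-zero cells, and each comparison was made within a library. The cells between these classes are called intermediate.

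Callus is the tissue that forms around a fracture and joins its ends, and here it came from closed femoral fractures of Sprague Dawley rats, at week 4 and at week 12 after fracture. The 4 treatments were an untreated control, zoledronate alone, CGRP on top of zoledronate, and magnesium on top of zoledronate, with 1 library for each treatment and week. They are called the control, zoledronate, CGRP and magnesium libraries, and by their treatment labels all but control share zoledronate. The protocol text on zoledronate dosing is the same for every sample, those labelled untreated included, so that the control rats received none rests on the treatment label alone, and each zoledronate against control value carries this doubt. Zoledronate is a bisphosphonate that slows bone resorption, given under the skin at 0.3 mg/kg per week for 12 weeks before fracture, and CGRP is calcitonin gene-related peptide, a neuropeptide. The labels name a steel nail and a nail containing magnesium without saying which group had which, and give neither the age nor the number of rats behind a library. Cells were freed with collagenase A over 4 h and stayed in a dish for 24 h before capture, so the cells are those that were in the dish after culture.

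Decorin and lumican are small leucine-rich proteoglycans (SLRPs), secreted proteins with a curved leucine-rich core and sugar side chains. They bind collagen fibrils and govern how thick the fibrils grow and how far apart they lie, and decorin also binds transforming growth factor beta and several receptors. Both are used as markers of fibroblasts in tendon, skin, periosteum and other fibrous tissue, and osteoblast lineage cells express decorin too. In the GRCr8 assembly Dcn and Lum are neighbours, followed by the SLRP genes Kera and Epyc, and the SLRP genes Ogn, Omd and Aspn stand side by side elsewhere.

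The start regions of 3 genes are shown because the results turn on them: Lum, which the rule used, Aspn, the SLRP gene with the largest difference between the classes, and Ibsp, the bone matrix gene with the largest. Each window holds 250 bases before and 50 bases after the RefSeq gene start in GRCr8, read 5′ to 3′ on the gene's strand. Capitals mark a CCAAT box (CCAAT on either strand) and a TATA box (TATAAA on either strand). AP-1 sites (TGACTCA, either strand) were searched as well, and none of the 3 windows holds these letters. E-box (CANNTG) and SMAD (CAGAC) letters were searched too and are not marked. The Lum window holds both, and the Aspn and Ibsp windows each hold E-box letters.
Lum (chr7:34245456-34245755, plus strand): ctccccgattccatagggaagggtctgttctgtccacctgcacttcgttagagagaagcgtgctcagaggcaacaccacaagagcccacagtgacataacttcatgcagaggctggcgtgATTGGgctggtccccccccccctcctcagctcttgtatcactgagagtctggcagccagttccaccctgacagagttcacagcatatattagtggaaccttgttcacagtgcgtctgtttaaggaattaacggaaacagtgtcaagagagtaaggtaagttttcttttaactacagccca
Aspn (chr17:15310420-15310719, minus strand): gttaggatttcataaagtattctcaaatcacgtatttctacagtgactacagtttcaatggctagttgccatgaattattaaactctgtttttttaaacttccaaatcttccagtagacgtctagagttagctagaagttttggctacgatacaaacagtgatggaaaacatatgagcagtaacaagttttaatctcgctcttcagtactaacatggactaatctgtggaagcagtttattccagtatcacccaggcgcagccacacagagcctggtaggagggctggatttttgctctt
Ibsp (chr14:5757193-5757492, minus strand): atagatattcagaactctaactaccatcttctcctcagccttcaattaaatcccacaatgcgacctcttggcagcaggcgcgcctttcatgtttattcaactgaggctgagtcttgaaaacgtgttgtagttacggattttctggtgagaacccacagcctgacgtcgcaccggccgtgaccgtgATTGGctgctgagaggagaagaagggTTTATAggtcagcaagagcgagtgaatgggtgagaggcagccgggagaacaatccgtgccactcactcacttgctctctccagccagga
The Lum window has a CCAAT box on the reverse strand whose leftmost base is at -130 from the start. The Ibsp window has a CCAAT box at -65 and a TATA box at -39, both on the reverse strand, and the Aspn window holds neither motif. Among 33365 rat windows of this length, 37.5% hold a CCAAT box, 14.2% a TATA box and 4.64% an AP-1 site. E-box letters are in 72.1% of them and SMAD letters in 50.1%. These matches describe letters in the windows and no binding was measured.

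The libraries held between 7541 and 10670 barcodes and between 141264724 and 160177900 UMIs, with a median of 12544 to 19852 UMIs per cell. Each pair of libraries shared 13 to 31 barcode sequences over the 28 pairs. The Dcn and Lum high cells were spread unevenly, with 2 in control at week 12 and 10 in CGRP at week 4. These libraries entered no comparison of the classes, since each class needed at least 20 cells, and 6 libraries remained, of which magnesium at week 12 had only 51 such cells. No doublet caller was run, and 4.25% to 7.31% of the Dcn and Lum high cells lay above their library's 95th percentile of UMIs, against 2.24% to 5.56% of the double-zero cells. Without all cells above that percentile the tests below called 1434 genes higher and 1520 lower, against 1466 and 1580 with them.

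The share of Dcn and Lum high cells follows from the rule and is given as a description. It was 18.3% in magnesium at week 4 (1328 of 7268 cells, exact Clopper-Pearson 95% interval 17.4% to 19.2%), 13.8% in zoledronate at week 12 (1277 of 9278, 13.1% to 14.5%), 13.1% in control at week 4 (889 of 6809) and 11.4% in zoledronate at week 4 (870 of 7652). CGRP at week 12 had 8.93% (926 of 10370, 8.39% to 9.49%). The share was 0.638% in magnesium at week 12 (51 of 7999, 0.475% to 0.837%), 0.124% in CGRP at week 4 and 0.0257% in control at week 12. The control, zoledronate and magnesium libraries of week 4 and the zoledronate and CGRP libraries of week 12 were thus rich in these cells and the remaining ones nearly lacked them, and neither week nor treatment separated the rich from the poor. Within control and magnesium the week 4 library was the richer, and within CGRP the week 12 library. Each treatment and week is 1 library, so the differences have no replicate check, and the intervals cover counting error only.

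**Figure D1:**
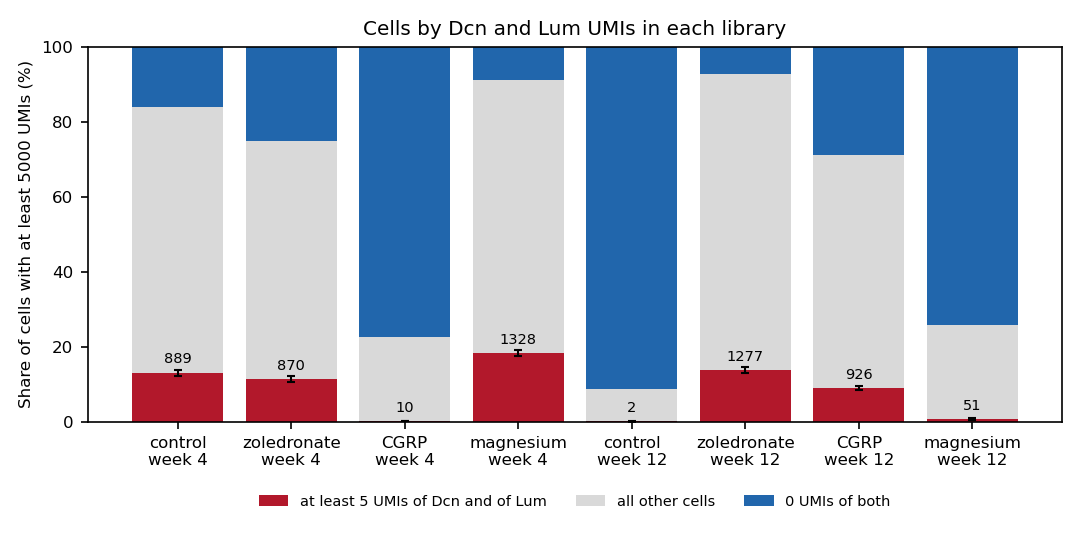
Share of cells (percent of cells with at least 5000 UMIs) in each class by library, with the number of Dcn and Lum high cells above the red bars and exact 95% intervals as black lines. The 5 rich libraries have 8.93% to 18.3% of cells in the high class, and control week 12, CGRP week 4 and magnesium week 12 have under 1%.

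The order of the rich libraries moved with depth. With every cell thinned to 5000 UMIs before the rule was applied, CGRP at week 12 had the highest share (1.73%), followed by zoledronate at week 12 (1.38%), zoledronate at week 4 (1.19%), magnesium at week 4 (1.06%) and control at week 4 (0.94%). The libraries poor in these cells stayed at 0.0129%, 0.0124% and 0.05% for control week 12, CGRP week 4 and magnesium week 12. Median UMIs per cell in CGRP at week 12 were the lowest of all libraries.

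Within the class, Dcn and Lum did not keep one ratio. The ratio of Dcn UMIs to Lum UMIs summed over the Dcn and Lum high cells was 0.963 in control, 0.922 in zoledronate and 0.978 in magnesium at week 4, and 0.943 in CGRP at week 12. It was 1.72 in zoledronate and 1.69 in magnesium at week 12. The rule asks for at least 5 UMIs of each gene, which bounds these ratios, so they are a description. Over all cells of at least 5000 UMIs the ratio was 0.77 in control, 0.794 in zoledronate and 0.947 in magnesium at week 4. At week 12 it was 1.07 in CGRP, 2.56 in zoledronate and 4.23 in magnesium over all such cells. The cells that had at least 5 UMIs of one gene and 0 of the other leaned the same way in those libraries: zoledronate at week 12 had 788 with Dcn alone and 49 with Lum alone, and magnesium at week 12 had 316 and 27. CGRP at week 12 had 358 and 230. At week 4 it was Lum alone that was commoner, with 471 against 185 cells in control, 326 against 119 in zoledronate and 295 against 251 in magnesium. Over all cells thinned to 5000 UMIs, the Spearman correlation of Dcn and Lum across the cells of a library lay between 0.0521 and 0.371, a description of cells that share a library.

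The threshold cut through a continuous range. In control at week 4, 122 members had exactly 5 UMIs of Dcn and 124 cells with enough Lum had exactly 4, and in zoledronate at week 12, 320 members had exactly 5 UMIs of Lum and 407 cells with enough Dcn had exactly 4. Members held 48.1% of all Dcn UMIs in control, 49.7% in zoledronate and 47.9% in magnesium at week 4, but 31.7% in zoledronate, 35.4% in CGRP and 10.3% in magnesium at week 12. The median member of the 6 libraries had 8.5 to 12 UMIs of Dcn and 7 to 11 of Lum.

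The other genes of these cells were then compared with those of the double-zero cells, with UMIs summed by library and class and edgeR's quasi-likelihood test with library as a block. The rule did not use these genes, although they were read from the same cells. Of 9583 genes tested, 1466 (15.3%) were higher in the Dcn and Lum high cells and 1580 (16.5%) lower at a false discovery rate (FDR) under 0.05, 31.8% in all. The median log2 difference of all genes was 0.01. Most differences were small: 110 genes were at least 2-fold higher and 113 at least 2-fold lower. Of the genes called, 48.1% were higher, and without scaling factors 34.3% were (1029 higher and 1975 lower). The libraries are the replicates, nothing says how many rats stand behind them, and the p-values measure only the spread of the class difference between these 6 libraries.

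Levels and ranges in the following paragraphs are those of the 6 libraries tested. Each list's count of called genes stands against 15.3% higher and 16.5% lower over all genes tested. Among genes with a mean of at least 20 CPM (UMIs per 1000000 UMIs of the class) with one sign in all 6, the gene higher by the most in the Dcn and Lum high cells was that of matrix Gla protein (Mgp), a secreted inhibitor of calcification. It ranged from 730 to 1576 CPM in the Dcn and Lum high cells (median 918) and from 73.5 to 316 in the double-zero cells (median 138). The classes did not overlap for Mgp, as for 3.14% of the genes tested, and the log2 difference was 2.87 (SE 0.185, FDR 1.9e-05, edgeR). Lbp, the lipopolysaccharide binding protein, had a log2 difference of 2.09 (SE 0.173), with 22.4 to 215 CPM against 5.54 to 49.5. Fibin, a secreted protein, and Anpep, the membrane aminopeptidase CD13, differed by 1.71 and 1.70, and neither gene's classes overlapped (17.8 to 44.3 against 4.49 to 14.0 CPM for Fibin). Those of Anpep nearly touched, at 27.5 to 67.8 against 7.96 to 27.1 CPM. Cthrc1, a secreted protein of injured and remodelling tissue, differed by 1.42, and Comp, a cartilage and tendon matrix protein that binds collagen, by 1.25.

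Wfdc18, a small secreted protein of the whey acidic protein family, stood second among these genes by its log2 difference of 2.73 (SE 0.339), and 1 library carried most of its level. It was at 538 CPM in the Dcn and Lum high cells of CGRP at week 12 and 55.4 in its double-zero cells. The other week 12 libraries had 17.8 against 4.38 (zoledronate) and 10.0 against 2.54 (magnesium), and the 3 week 4 libraries tested had under 1.5 CPM in either class. Without CGRP at week 12 the log2 difference was 1.52.

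**Figure D2:**
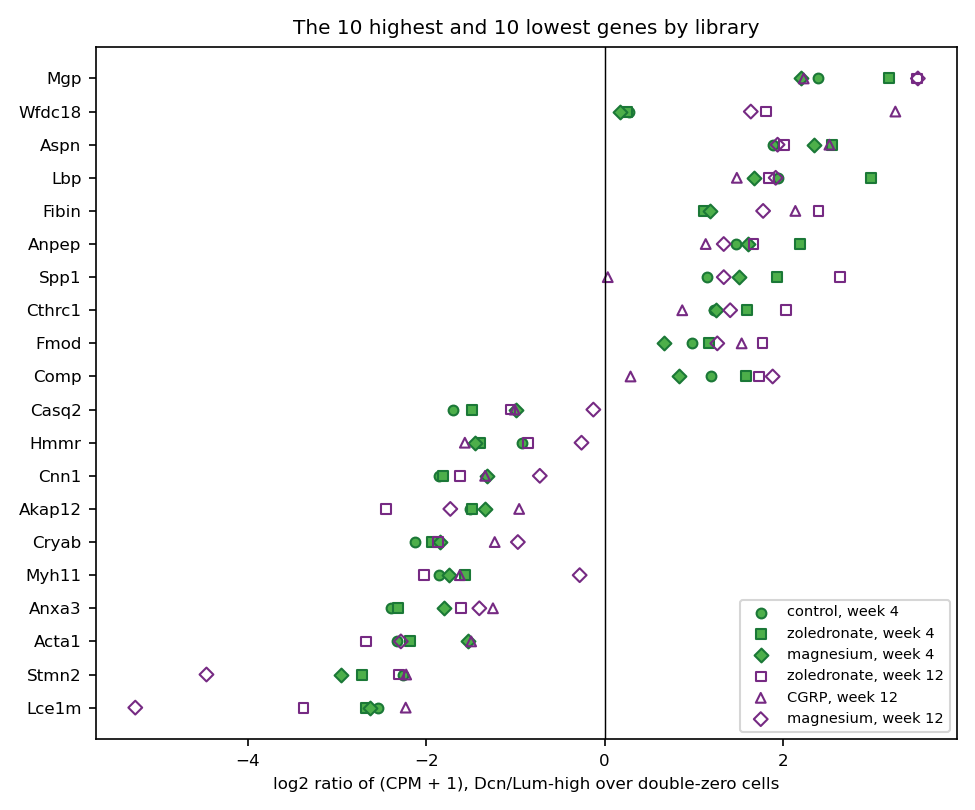
Log2 ratio of CPM plus 1 between Dcn and Lum high and double-zero cells (horizontal axis) for the 10 highest and 10 lowest genes of the naming rule, 1 point per library, filled green for week 4 and open purple for week 12. All points of a gene lie on one side of 0, and Spp1 in CGRP at week 12 lies closest to it.

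Other SLRP genes were higher in the same cells. Of 15 on the list, 7 were expressed well enough to test and all 7 were higher, against 15.3% of all genes, with a median log2 difference of 0.78. Asporin (Aspn), which binds collagen and transforming growth factor beta, was at 159 against 42.3 CPM in control, 256 against 43.2 in zoledronate and 210 against 40.3 in magnesium at week 4. At week 12 it was at 15.2 against 3.04 in zoledronate, 133 against 22.3 in CGRP and 85.6 against 21.6 in magnesium. The level of Aspn in zoledronate at week 12 was below that of the double-zero cells in each of the other 5 libraries tested, so the classes overlapped across libraries, yet the log2 ratio within a library was 1.88 to 2.54 and the log2 difference was 2.37 (SE 0.106, FDR 5.3e-06, edgeR). Fibromodulin (Fmod), which guides early collagen fibril assembly, ranged from 92.0 to 151 against 28.3 to 87.5 CPM (log2 difference 1.27, SE 0.124). Osteomodulin (Omd), an SLRP of mineralised tissue, differed by 0.96, Prelp, which anchors basement membranes to collagen, by 0.78, and Ogn (osteoglycin) by 0.72. Omd was low, at 1.70 to 4.84 against 0.715 to 3.23 CPM. Biglycan (Bgn), the nearest relative of decorin, differed by 0.34. Its CPM in CGRP at week 12 was 2372 in the Dcn and Lum high cells and 2533 in the double-zero cells. The log2 difference uses scaling factors, 0.92 and 1.01 for these sums, and CPM does not, so the direction in that library is not settled by its CPM. The 8 genes not tested included Kera and Epyc, the neighbours of Lum.

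Collagens differed little. Of 11 fibrillar and associated collagen genes tested, 7 were higher and 0 lower, against 15.3% and 16.5% of all genes, with a median of 0.32. Col1a1, the main chain of bone and tendon collagen, was at 27197 against 22524 CPM in control at week 4 and at 19438 against 17992 in magnesium at week 12, and its log2 difference was 0.32 (SE 0.0603). Col3a1, the collagen of loose and healing tissue, differed by 0.36. Col11a1, which nucleates fibrils, differed by 0.72 (SE 0.139), with 390 to 3005 CPM against 206 to 2112. The double-zero cells thus made fibrillar collagen mRNA at levels near those of the Dcn and Lum high cells. Col14a1, a collagen on the fibril surface often used as a fibroblast marker, was not called over the 6 libraries (log2 difference -0.07, FDR 0.84). It was lower in the Dcn and Lum high cells of the week 4 libraries, at 49.1 against 75 CPM in control, and higher in those of week 12, at 230 against 165 in CGRP. It is 1 of 12 genes (0.125% of those tested) whose class difference was called different between weeks.

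Matrix genes beyond the collagens were mixed. Among 19 matricellular and other fibrous matrix genes 9 were higher and 2 lower (median 0.29), led by Mgp, Cthrc1 and Comp, with Thbs2 at 0.81 and the periostin gene Postn at 0.41 behind them. Tnc (tenascin C), a glycoprotein of wounds and developing tendon, was lower by a log2 difference of -0.54, and the connective tissue growth factor gene Ctgf was not called (-0.01, FDR 0.94). Of 11 elastic fibre and microfibril genes 2 were higher, Emilin1 (0.72) and fibronectin (Fn1, 0.53), and 2 lower, Fbln5 (-0.48) and Ltbp2. Both counts are 18.2% of the list, near the 15.3% higher and 16.5% lower of all genes. Fn1 did not overlap between the classes, at 6710 to 7946 against 4675 to 5518 CPM. Of 18 collagen processing and crosslinking genes 6 were higher, led by the procollagen proteinases Adamts2 (0.76) and Bmp1 (0.54), and 2 lower, Loxl4 (-0.62) and Lox (-0.28), which are crosslinking oxidases. Loxl4 was low, at 1.39 to 3.78 against 2.25 to 5.81 CPM. Of 17 matrix proteases and inhibitors 7 were higher and 3 lower: the serine protease Htra3 differed by 1.94, the protease inhibitor Serpine2 by 1.21 and the gelatinase Mmp2 by 1.08. Htra3 was a low gene, at 1.07 to 5.61 against 0.595 to 0.944 CPM, while Mmp2 was at 267 to 984 against 136 to 502.

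Markers of named fibroblast kinds did not move as a block. On the adventitial and progenitor fibroblast list 5 of 14 tested genes were higher and 0 lower (3 and 1 without scaling factors), with a median of 0.14, among them the platelet-derived growth factor receptors Pdgfrb (0.36) and Pdgfra (0.32), while Cd34, Clec3b, Dpp4 and Gas1 could not be tested. On the tendon and periosteum list 5 of 10 were higher and 1 lower (median 0.58). Fmod, Postn, the cathepsin K gene Ctsk (0.87, SE 0.0898) and Egr2 were among the higher, Acta2 was the lower one, and the tendon regulator Scx (-0.14, FDR 0.42) and tenomodulin Tnmd (0.71, FDR 0.31) were not called. Tnmd went both ways: it was at 429 against 48.1 CPM in magnesium at week 12. It was at 4.07 against 5.99 in zoledronate at week 12 and 1.33 against 2.98 in magnesium at week 4. These lists do not single out fibrous cells: fibrillar collagens were high in both classes, and the bone matrix list described next had a higher median than the SLRP list. The cells are therefore called by the rule on Dcn and Lum.

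Bone matrix genes were higher as well. Of 14 on the list 7 could be tested and all 7 were higher, against 15.3% of all genes, with a median of 1.17. Bone sialoprotein (Ibsp), which nucleates mineral, was at 20.6 against 0.638 CPM in control, 43.8 against 1.91 in zoledronate and 19.9 against 0.382 in magnesium at week 4. At week 12 it was at 0.485 against 0.268 in zoledronate and 2.63 against 0.36 in CGRP, and at 0 against 0.198 in magnesium. The classes were far apart in each week 4 library and close in the week 12 libraries of zoledronate and magnesium. The log2 difference over the 6 libraries was 4.47 (SE 0.297, FDR 2.1e-05, edgeR), and the difference of it between weeks, -2.28 (SE 0.578), had an FDR of 0.26 and was not called. Osteopontin (Spp1) differed by 1.48 (SE 0.249), and its levels were 1163 against 524 CPM in control at week 4 and 330 against 322 in CGRP at week 12. Alkaline phosphatase (Alpl), an enzyme that frees phosphate for mineral, differed by 1.17, the parathyroid hormone receptor Pth1r by 1.42, Dlx5, a transcription factor of bone formation, by 0.70 and Runx2, the early osteoblast regulator, by 0.39. Pth1r was at 9.06 to 12.2 against 2.13 to 5.19 CPM in the week 4 libraries. At week 12 it was at 0.775 against 0.447 in zoledronate, 2.55 against 2.65 in CGRP and 5.56 against 3.41 in magnesium. Defining genes of mature osteoblasts and osteocytes were at or near 0: Bglap (osteocalcin) reached 1.11 CPM in a library, Sp7 0.175, and Dmp1 was at 0 in every library's Dcn and Lum high cells.

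Cells with a UMI of Alpl or Ibsp at 5000 UMIs were commoner among the Dcn and Lum high cells of all 6 libraries. They made up 29.4% against 9.04% in zoledronate, 23.9% against 10.8% in magnesium and 21.6% against 9.72% in control at week 4, and 9.08% against 5.74%, 5.94% against 3.44% and 3.92% against 2.93% in zoledronate, CGRP and magnesium at week 12. Most Dcn and Lum high cells thus had a UMI of neither gene at this depth. Of 7 cartilage genes tested 3 were higher, Comp, Acan (aggrecan, 0.88) and Col11a1, and Sox9 was not called, with Col2a1 under 0.15 CPM in either class of any library.

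**Figure D3:**
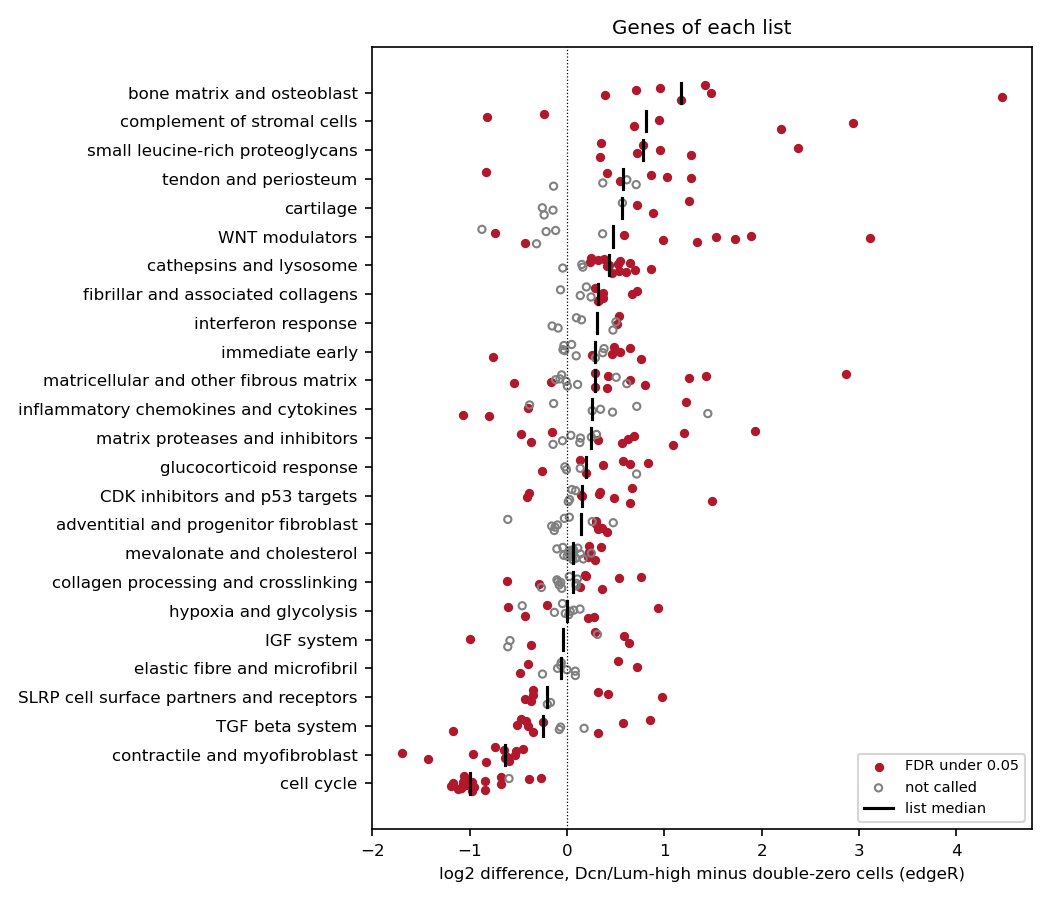
Log2 difference between Dcn and Lum high and double-zero cells for each tested gene of 25 lists (points, red where FDR is under 0.05) with the list's median as a black bar. Bone matrix and SLRP lists have medians of 1.17 and 0.78, and contractile and cell cycle lists have the lowest (-0.64 and -1.0).

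Complement genes and WNT modulators held further differences. The protease C1s, which starts the classical pathway, differed by 2.19, with low levels except in CGRP (21.2 against 5.76 CPM) and magnesium (36.7 against 4.51) at week 12. Its partner C1r differed by 0.68 (SE 0.0895, edgeR FDR 0.0004), and the membrane regulators Cd55 and Cd59 were lower, by -0.83 and -0.24.

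Of 14 tested WNT genes 7 were higher and 2 lower (median 0.47, and -0.03 without magnesium at week 12). The secreted frizzled-related proteins, which bind WNT ligands, led: Sfrp2 differed by 3.11 (SE 0.233), at 28.0 against 1.97 CPM in zoledronate and 12.0 against 1.40 in control at week 4, and at 2.18 against 0.179 in zoledronate at week 12. Sfrp4 differed by 1.53, at 43.7 against 11.4 CPM in zoledronate at week 4. Frzb differed by 1.89 (SE 0.553) and Sfrp1 by 1.72 (SE 0.538), and neither was called when control, zoledronate or magnesium at week 4 was left out. Those log2 differences were 1.25, 1.62 and 1.88 for Frzb and 1.73, 1.73 and 1.75 for Sfrp1, and without CGRP at week 12 that of Frzb was 3.28. Sfrp1 reached 325 against 28.0 CPM in magnesium at week 12 and 30.0 against 25.9 in CGRP at week 12, and was under 1.5 CPM in both classes of the other 4 libraries tested. The ligand Wnt5a was lower (-0.43).

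Contractile genes were lower. All 12 tested genes of the contractile and myofibroblast list were lower, against 16.5% of all genes, with a median of -0.64. Smooth muscle actin (Acta2), which marks myofibroblasts, was at 1599 against 2959 CPM in control, 1923 against 3610 in zoledronate and 2084 against 3375 in magnesium at week 4, and at 2534 against 5741, 1569 against 2797 and 2287 against 3723 in zoledronate, CGRP and magnesium at week 12. The classes did not overlap, and the log2 difference was -0.83 (SE 0.0673, FDR 3.7e-05, edgeR). Myh11 and Cnn1, late smooth muscle genes, differed by -1.69 and -1.43, and Cnn1 was at 36.2 against 134 CPM in control at week 4 and at 507 against 839 in magnesium at week 12. Acta2 was still found in 89.9% to 94.4% of the Dcn and Lum high cells at 5000 UMIs, against 96.5% to 99.4%, so these were cells with less actin mRNA, not without it.

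The remaining lowest genes had varied roles. Lce1m, a gene of the late cornified envelope family, differed by -3.01 (SE 0.19), with 0 to 16.6 against 10.2 to 181 CPM. Stmn2, a microtubule regulator best known in neurons, differed by -2.59, and its levels in zoledronate at week 12, 129 against 640 CPM, were each above those of the same class in the other 5 libraries tested. Acta1, skeletal alpha actin, differed by -2.08 with no overlap (13.0 to 35 against 42.0 to 228 CPM). The small heat shock protein Cryab differed by -1.67, the kinase scaffold Akap12 by -1.52, the annexin Anxa3 by -1.87 and Casq2, a calcium store protein of muscle, by -1.24. The skeletal muscle defining genes Myod1, Pax7, Myog and Ckm were at 0 or not listed.

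Cell cycle genes were lower too: 19 of 20 were called lower and 0 higher, against 16.5% and 15.3% of all genes, with a median of -1.0. Cdc20, which drives exit from mitosis, was at 46.3 against 91.1 CPM in control at week 4 and 8.97 against 19.3 in zoledronate at week 12 (log2 difference -1.20, SE 0.0859). Birc5 (survivin) differed by -1.17, Cenpf by -1.12 and Mki67, the proliferation marker, by -0.98. The share of cells with a Mki67 UMI at 5000 UMIs was 7.67% ± 5.22 in the Dcn and Lum high cells and 15.4% ± 7.23 in the double-zero cells (mean ± SD, n = 6 libraries). The difference was -7.76 ± 3.43 percentage points and negative in 6 of 6 libraries, at an exact two-sided permutation p of 0.031, the smallest that 6 pairs can give, and an adjusted 0.0625 over 2 such tests, which does not pass 0.05. The unthinned shares were 13.6% and 23.5%. The other of these tests, on the median number of genes per cell at 5000 UMIs, gave 1622 against 1645, lower in 4 of 6 libraries (exact permutation p 0.19, adjusted 0.19). Inhibitors of the cycle were higher in part: of 14 CDK inhibitor and p53 target genes 8 were higher (4 without scaling factors) and 2 lower, with Cdkn1a (p21) at 74.5 to 109 against 38.2 to 85.0 CPM (0.65, SE 0.0772).

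**Figure D4:**
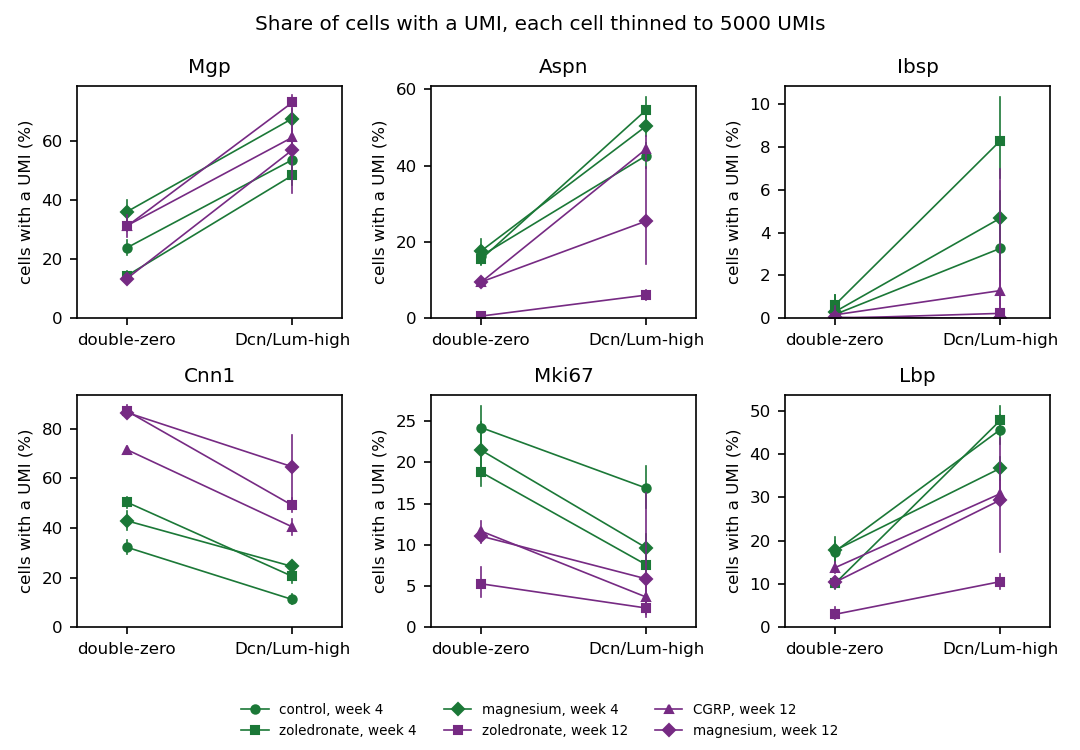
Share of cells with a UMI of 6 genes (percent, each cell thinned to 5000 UMIs) in double-zero and in Dcn and Lum high cells, 1 line per library with exact 95% intervals as vertical bars. Mgp, Aspn and Lbp were found in more, and Cnn1 and Mki67 in fewer, of the high cells in all 6 libraries, and Ibsp in more of them in 5 of 6.

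The share of cells with a UMI gives these differences per cell. At 5000 UMIs the median over libraries was 59.0% against 27.5% for Mgp, 43.5% against 12.5% for Aspn, 33.8% against 12.1% for Lbp and 32.5% against 61.0% for Cnn1. Ibsp was in 8.28% of the Dcn and Lum high cells of zoledronate at week 4 and in 0 of 51 in magnesium at week 12 (exact 95% upper limit 6.98%). Marker genes such as Mgp were thus common in double-zero cells as well.

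Growth factor systems were split, while 15.3% of all genes were higher and 16.5% lower. Of 13 tested genes of the transforming growth factor beta system 3 were higher and 7 lower (median -0.25). Its ligand gene Tgfb3 was at 126 to 185 against 263 to 544 CPM, with no overlap and a log2 difference of -1.18 (SE 0.0748), and Tgfb2 (-0.35), the activin subunit Inhba (-0.52) and the feedback inhibitor Smad7 (-0.42) were lower as well. Tgfb1 (0.32), the induced matrix protein gene Tgfbi (0.86) and the activin antagonist Fst (0.58) were higher. Of 8 insulin-like growth factor genes 3 were higher, among them the clearance receptor Igf2r (0.64), and 2 lower, Igfbp3 (-1.0) and Igf1r. Igf1 itself was not called (-0.61, FDR 0.31), and was called lower without CGRP at week 12 (-1.10). Its level was lower in the Dcn and Lum high cells of 4 libraries, among them control at week 4 (22.9 against 60.9 CPM). The level was higher in 2, CGRP at week 12 (443 against 205) and magnesium at week 12 (193 against 101). Among 9 tested receptor, surface partner and ligand genes linked to SLRPs 3 were higher: the pattern receptor Tlr4 (0.98), Lrp1 (0.42) and the ligand gene Tgfb1. Lower were 4, among them the ligand gene Vegfa (-0.43), to which decorin is linked as a brake on vessel growth. Tlr4 was a low gene, at 1.20 to 4.45 against 0.544 to 1.45 CPM.

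Of the lists for cell state, cathepsins and lysosome stood out, with 14 of 17 tested genes higher and 0 lower (median 0.43). Over all genes tested 15.3% were higher and 16.5% lower. Ctsk ranged from 163 to 222 against 86.9 to 142 CPM and Ctsh from 294 to 400 against 203 to 259, without overlap. Acp5, the tartrate-resistant phosphatase also used for osteoclasts, differed by 0.54, while the osteoclast genes Ocstamp, Dcstamp and Calcr were at 0 or not listed. Of 21 mevalonate and cholesterol genes, the pathway that zoledronate blocks, 5 were higher and 0 lower with a median of 0.06, and 1 was higher without scaling factors. The log2 difference of Insig1 was 0.35, and it was not called without control at week 4 (0.24), magnesium at week 4 (0.34) or magnesium at week 12 (0.33). Hypoxia and glycolysis genes had 3 of 14 higher and 3 lower (21.4% each), near the shares of all genes. Immediate early genes had 6 of 15 higher, led by Fos (0.76), and 1 lower, Fosl1 (-0.76), and glucocorticoid response genes had 6 of 11 higher, led by the metallothionein gene Mt2A (0.83), and 1 lower. Of 8 interferon genes 2 were higher and 0 lower. Of 11 chemokine and cytokine genes 1 was higher, Il34 (1.23), and 3 lower, Ccl7 (-1.07), Ccl2 (-0.80) and Il11. Il34 was low, at 1.13 to 3.67 against 0.638 to 2.44 CPM. The median of that list was 0.26, and it was -0.31 after thinning and -0.02 without magnesium at week 12.

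The libraries left out of the test had too few Dcn and Lum high cells, but their intermediate cells could be set against their double-zero cells. For the 10 highest and 10 lowest genes, chosen in the 6 libraries tested, 19 of 20 had the direction of the tested difference in control at week 12, and 19 of 20 in CGRP at week 4. The exceptions were Casq2 in control at week 12 (log2 ratio 0.114) and Comp in CGRP at week 4 (-0.0195). Several other log2 ratios were near 0. Hmmr was at -0.074 in control at week 12. Myh11 was at -0.015, Spp1 at 0.026 and Fmod at 0.063 in CGRP at week 4. The same share over all genes was not taken, and the count is a description with no test.

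Markers of other cell types ranged from 0 to levels near those of the genes above. Chondrocyte genes summed to 105 to 289 CPM in the Dcn and Lum high cells and 69.7 to 250 in the double-zero cells, mainly Sox9 (68.4 to 94.5 against 53.4 to 133) and Acan, while Col10a1 and Cnmd were at 0 or not listed. Of the Schwann cell genes, S100b was at 18.3 to 98.9 against 3.84 to 60.6 CPM and Ncam1 at 43.0 to 83.1 against 69.8 to 83.1, with Sox10, the defining regulator, at 0 or not listed. Skeletal muscle genes summed to 13.6 to 36.2 against 42.9 to 230 CPM, nearly all of it Acta1. The osteoblast list summed to 7.78 to 113 against 6.65 to 24.2 CPM. The 11 macrophage genes summed to 16.7 to 42.4 CPM in the Dcn and Lum high cells and 11.8 to 70.4 in the double-zero cells. Cd14 was at 14.9 to 19.5 against 10.6 to 13.0 CPM, and Csf1r reached 1.11 against 0.5. Other genes of the list reached higher levels in the double-zero cells. Lyz2 reached 16.5 against 42.3 CPM, Fcer1g 2.62 against 6.35, Tyrobp 2.04 against 5.81 and Cd68 1.07 against 2.41. The defining macrophage gene Ptprc was at no more than 0.145 CPM in the Dcn and Lum high cells, and C1qa, C1qb and Adgre1 were not listed. Endothelial genes summed to 36.5 to 71.1 against 39.0 to 51.3 CPM with Cdh5 and Emcn not listed, and lymphocyte and erythroid genes were at 0 or not listed. The list of pericyte and smooth muscle genes summed to 17.6 to 78.9 against 43.3 to 92.9 CPM. It shares Myh11 with the contractile list, and its defining gene Rgs5 was at 0 or not listed. The part of other cell types in the results above was not tested.

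Between libraries, the Dcn and Lum high cells were compared by size only, with CPM, exact Poisson 95% intervals that cover counting error only, and the ratio in double-zero cells of the same libraries beside each. At week 4 the cells of the 3 libraries were close, and so were their double-zero cells. Over the genes compared below, 6 were at least 2-fold apart in double-zero cells between zoledronate and control. Between magnesium and zoledronate there were 6 as well. Between zoledronate and control, 9 of 2336 genes (0.385%) were at least 2-fold apart, with Postn at 406 against 127 CPM (log2 ratio 1.67, and 1.51 in double-zero cells), Thbs4 at 149 against 50 (1.56, and 1.32) and Tnfaip6, a hyaluronan binding protein, at 105 against 42.1 (1.3, and 0.97). Fam111a, a protease gene of the nucleus, was at 29.3 against 237 CPM (-2.98, and -2.72 in double-zero cells) and Ndufa4l2 at 35.1 against 120 (-1.74, and -1.63). Mki67 was at 37.9 CPM (35 to 40.9) in zoledronate and 92.4 (88.1 to 96.7) in control, a log2 ratio of -1.26 beside -0.43 in the double-zero cells. Magnesium against zoledronate had 2 of 2347 genes (0.0852%) that far apart: Thbs4, at 31.3 against 149 CPM, and the kinase Sgk1, at 75.1 against 35.4, with log2 ratios of -2.22 and 1.06 beside -3.14 and 1.06 in double-zero cells. Lbp was at 139 against 215 CPM (-0.62) while its double-zero ratio was 0.69.

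At week 12 the libraries were further apart. CGRP against zoledronate had 78 of 2279 genes (3.42%) at least 2-fold apart. In double-zero cells 84 of those 2279 genes were, so this distance was not particular to the Dcn and Lum high cells. Wfdc18 was at 538 against 17.8 CPM, Tgfbi at 125 against 13.8 and Aspn at 133 against 15.2, with log2 ratios of 4.84, 3.09 and 3.04 beside 3.39, 3.03 and 2.53 in double-zero cells. Rpl39l, a ribosomal protein paralog, was at 8.26 against 139 CPM, the cartilage matrix gene Cilp2 at 39.8 against 274 and Stmn2 at 20.4 against 129. Their log2 ratios were -3.92, -2.75 and -2.60, beside -3.22, -2.36 and -2.68 in double-zero cells, so these differences between the libraries were present in both classes. Spp1 parted from the double-zero cells: it was at 330 against 895 CPM (-1.44), and at 322 against 143 (1.16) in double-zero cells.

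Magnesium against zoledronate at week 12 had 148 of 2408 genes (6.15%) at least 2-fold apart, and rests on 51 magnesium cells. In double-zero cells 109 of those 2408 genes were that far apart. Sfrp1 was at 325 CPM (288 to 364) against 1.36, Tnmd, a tendon membrane protein, at 429 (387 to 474) against 4.07 and Hsd11b1, which activates glucocorticoids, at 421 against 17.2. Their log2 ratios were 7.11, 6.41 and 4.54, beside 3.69, 2.81 and 5.36 in double-zero cells. Stmn2 was at 1.11 CPM (0.0281 to 6.19) against 129 and Cilp2 at 11.1 against 274, and Car9, a hypoxia enzyme, at 15.6 against 88.2, with log2 ratios of -5.94, -4.50 and -2.43 beside -3.79, -2.88 and -2.19 in double-zero cells. CGRP and magnesium were both set against the same zoledronate library.

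**Figure D5:**
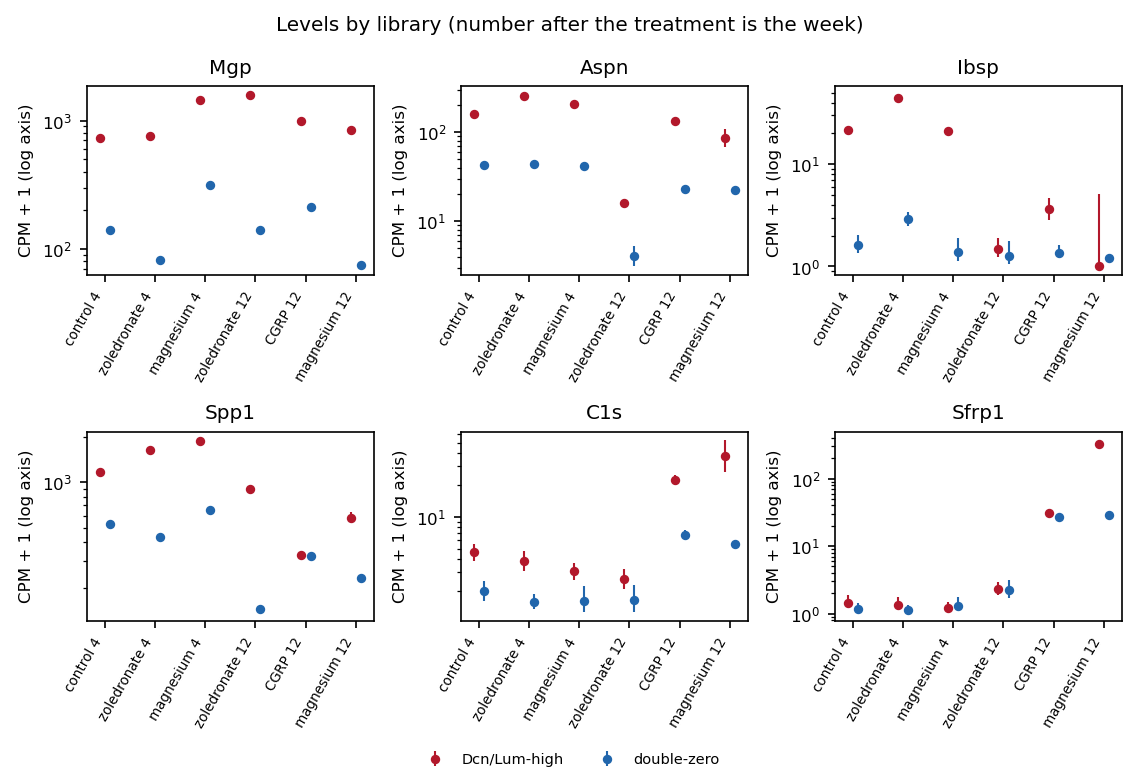
CPM plus 1 (log axis) of 6 genes in Dcn and Lum high (red) and double-zero cells (blue) by library, with exact Poisson 95% intervals for counting error. Mgp is separated in every library, Ibsp is at 19.9 to 43.8 CPM in the high cells of week 4 and at most 2.63 at week 12, and Sfrp1 is at 325 CPM in the high cells of magnesium at week 12.

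From week 4 to week 12, zoledronate had 54 of 2346 genes (2.3%) at least 2-fold apart in these cells. In its double-zero cells 42 of those 2346 genes were. Col4a1, a basement membrane collagen, was at 288 CPM at week 12 and 24.6 at week 4, Stmn2 at 129 and 11.7, and Igf1 at 99.4 and 14.7. Aspn was at 15.2 and 256, Lbp at 22.4 and 215, and Penk, the proenkephalin gene, at 11.5 and 111. The double-zero cells had log2 ratios of 2.46, 2.94 and 1.16 for the first group and -3.45, -2.06 and -3.33 for the second, beside 3.5, 3.36, 2.67, -3.99, -3.20 and -3.17. Magnesium had 142 of 2423 genes (5.86%) that far apart, and 97 of those 2423 in its double-zero cells. Sfrp1 was at 325 CPM at week 12 and 0.216 at week 4, Tnmd at 429 and 1.33 and the chemokine Ccl7 at 605 and 6.23, while Cilp2 was at 11.1 and 104, Col11a1 at 390 and 2888 and Penk at 22.2 and 112. Their log2 ratios were 8.06, 7.53, 6.39, -3.12, -2.88 and -2.29, beside 4.47, 3.63, 5.87, -2.08, -3.36 and -2.11 in double-zero cells. Mgp was at 1576 CPM at week 12 and 751 at week 4 in zoledronate, and at 847 and 1453 in magnesium. Its log2 ratios were 1.07 and -0.78, beside 0.76 and -2.09 in double-zero cells, so each treatment's direction was shared by both classes. The comparisons of control, of CGRP over time, of CGRP at week 4 and of control at week 12 could not be made, since a library in each had under 50 such cells.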

How the data were processed

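Single cells of rat fracture callus were measured in 8 libraries with UMIs. The authors deposited 1 table of counts (UMIs per gene and barcode) per library, made with STAR on Rnor_6.0, per the submitters' processing notes. STAR's version, the annotation and the cell calling are not given here. Every listed gene had UMIs in at least 5 cells, every cell had at least 500 genes and 0 mitochondrial genes were listed. The members, gene lists and tests were chosen with earlier results of these data known.

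UMIs were summed per library and class over cells of at least 5000 UMIs. Libraries with at least 20 cells in each class entered edgeR 4.0.16 (R 4.3.3; TMM scaling, filterByExpr, quasi-likelihood test with library as block, Benjamini-Hochberg FDR 0.05, tested on simulated data). Genes had to be listed in all 6 libraries, and Dcn and Lum were left out of the test. CPM is per 1000000 UMIs of the class sum, without the scaling factors. Named genes were the 10 highest and 10 lowest with FDR under 0.05, at least 20 CPM and one sign in all libraries, and up to 3 of each of 25 lists. Between libraries, classes needed at least 50 cells, and genes 50 or more UMIs and a mean of 50 CPM or more, with log2 ratios of CPM plus 1, of which the 3 highest and 3 lowest were named. Shares of cells with a UMI were taken after thinning each cell to 5000 UMIs (Clopper-Pearson 95% intervals, exact paired permutation). Intervals and limits cover counting error only. DESeq2 1.42.0, other thresholds, other filters, thinning and leaving out each library were the alternatives. Results of some genes are not reported here.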

Additional observations from a re-analysis of the deposited data

Results flagged for a closer look

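The difference between the classes was itself compared between weeks, in the 3 libraries of week 4 and the 3 of week 12 that entered the test (edgeR, interaction term, 9583 genes). This test was chosen after the data were seen, and the treatments differ between the weeks (control, zoledronate and magnesium against zoledronate, CGRP and magnesium), so week and treatment are in part confounded: only zoledronate and magnesium have a library in both weeks. At an FDR under 0.05, 12 genes differed (0.125%).

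Of these, 7 had a log2 difference between the classes that was higher at week 12. Col14a1, a fibril surface collagen, moved by 1.22 (FDR 0.012): it was lower in the Dcn and Lum high cells of each week 4 library (log2 ratios -0.91 to -0.59) and higher in each of week 12 (0.36 to 0.71), the zoledronate and magnesium libraries included. Esm1, a secreted proteoglycan, moved by 2.59, from -1.74 to -1.36 at week 4 to -0.21 to 0.63 at week 12. Fibin moved by 1.14, Gsta1, a glutathione transferase, by 1.14, Cpxm2 by 1.15, Spats2l by 0.75 and the aryl hydrocarbon receptor gene Ahr by 0.89.

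The other 5 had a class difference that was lower at week 12. Crispld2, a secreted protein, moved by -2.24, from 2.11 to 2.44 at week 4 to -0.23 to 0.93 at week 12. Frzb moved by -3.65, the ligand Wnt5b by -2.04, the ephrin receptor Epha4 by -1.25 and the signalling regulator Rgs3 by -1.0. Frzb and Wnt5b were low genes, at a mean of 1.22 and 3.96 CPM.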

How the results depend on the processing

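The count of genes higher in the Dcn and Lum high cells was 1466 and of genes lower 1580. Without the library block the counts were 207 and 156, and after thinning each cell to 5000 UMIs, where 8365 genes were tested, they were 828 and 916. Leaving out each library in turn gave 960 to 1552 higher and 1096 to 1631 lower, with the fewest without zoledronate at week 4, and 1552 and 1631 without magnesium at week 12 and its 51 cells. DESeq2 gave 1241 and 1500. Of 82 named genes, of which 69 (after thinning) to 82 were tested under an alternative, 0 reversed where tested, and without the library block 52 were no longer called. The share of Dcn and Lum high cells, 8.21%, was 15.3% with at least 3 UMIs of each gene, 2.13% with at least 10 and 0.836% after thinning. The difference in Mki67 share was -11.1 percentage points with at least 10 UMIs of each gene and lay between -8.72 and -6.94 when a library was left out; each of these has 5 pairs, which cannot give an exact permutation p below 0.0625. Genes at least 2-fold apart between zoledronate and control at week 4 were 9, and 14 after thinning. Between magnesium and zoledronate at week 4 they were 2, and 5 after thinning and 1 with a pseudocount of 10. The comparisons with magnesium at week 12 were not run with at least 10 UMIs, which leaves under 20 cells. The median of the insulin-like growth factor list, -0.04, was 0.02 with DESeq2. The cause of these changes was not tested.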
